A study of Mus musculus with 18 samples.

Results

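Keratins are the intermediate filament proteins of epithelial cells. Their filaments form from pairs of a type I and a type II protein, and most members of each type lie in 1 gene cluster of their own. Textbook pairs mark kinds of epithelium: Krt8 with Krt18 in simple, single-layered epithelia, Krt5 with Krt14 in basal cells, and Krt4 with Krt13 in the upper layers of moist squamous linings. The family was taken as every gene symbol of the deposited count table made of Krt and a number only, which gave 50 of 26327 symbols. A further 4 keratin symbols that carry a letter (Krt6a, Krt6b, Krt33a and Krt33b) were set beside them.

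The cells came from the trachea of naive B6.Cg mice that carried the BAC transgene Tg(RP23-268L19-EGFP)2Mik/J, which puts eGFP under the choline acetyltransferase locus, and all 3 groups share that transgene. Brush (tuft) cells, sparse chemical sensors of the airway epithelium, were sorted as CD45-, EpCAM+ and eGFP+ (7 libraries). EpCAM+ cells were sorted as CD45- and EpCAM+ (7 libraries), a gate that as worded does not exclude eGFP+ cells, and CD45+ cells are the hematopoietic cells of the same organ (4 libraries). Tissue was digested with dispase and then papain, and dead cells were excluded with propidium iodide. Whether libraries of 1 group represent separate animals is not stated in the labels. The p-values therefore cover the spread among these libraries alone, some of which may be technical.

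Library totals ran from 838328 to 6031711 counts in brush libraries, from 2442601 to 6087184 in EpCAM+ libraries and from 371652 to 7438791 in CD45+ libraries. One library in each group stood apart: brush 4, EpCAM+ 5 and CD45+ 1 had median Spearman correlations across genes with their own group of 0.849, 0.81 and 0.759, against 0.895 to 0.951 for the others. The sorted cells carried the markers of their labels. The summed level of 10 brush cell markers was 10200 to 11490 CPM (counts scaled to library size) in brush libraries, 8.07 to 35.7 CPM in EpCAM+ libraries and 8.62 to 186 CPM in CD45+ libraries, with Il25 and Gfi1b at 0 in all EpCAM+ libraries. The sum of 8 epithelial markers was 4782 to 6455 CPM in brush libraries, 1797 to 2404 CPM in EpCAM+ libraries and 33.8 to 56.1 CPM in CD45+ libraries. The sum of 10 leukocyte markers was 15.9 to 40.8 CPM in brush libraries, 0.372 to 4.04 CPM in EpCAM+ libraries and 6897 to 9878 CPM in CD45+ libraries.

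Brush cells held a simple-epithelial keratin set. By TPM, which corrects for transcript length so that keratins can be set side by side, Krt18 was the most abundant at 4175 ± 868 TPM in brush cells, followed by Krt8 at 2633 ± 721, Krt19 at 1948 ± 555 and Krt23 at 170 ± 52.3 TPM (SD, n = 7). Each of these 4 stood above the next in 7 of 7 brush libraries. The order below them was not stable: Krt15 (51.2 ± 26.6 TPM) exceeded Krt7 (42 ± 18.8 TPM) in 4 of 7 brush libraries, and Krt222 (27.4 ± 17.1 TPM) exceeded Krt17 (24.9 ± 27 TPM) in 3 of 7.

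EpCAM+ cells had another order. Krt15, a type I keratin of basal cells, led at 2428 ± 801 TPM, followed by Krt17 (1633 ± 549 TPM), Krt19 (1264 ± 340 TPM), Krt4 (838 ± 549 TPM), Krt18 (728 ± 196 TPM), Krt8 (574 ± 237 TPM), Krt5 (481 ± 197 TPM) and Krt14 (422 ± 234 TPM). Only Krt18 over Krt8 held in 7 of 7 EpCAM+ libraries, and the other neighbours in this order held in 3 to 6 of 7. In CD45+ cells no keratin passed a mean of 17.9 TPM, that of Krt19.

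The summed keratin TPM was of like size in both epithelial populations: 9126 ± 2155 TPM in brush cells (5201 to 12230) and 9157 ± 2773 TPM in EpCAM+ cells (3183 to 11120, SD, n = 7 each). It was 89.9 ± 63.6 TPM in CD45+ cells (29.6 to 155, n = 4). What differed was the make-up. Simple keratins (Krt7, Krt8, Krt18, Krt19, Krt20 and Krt23) took 98.2 ± 0.90% of the keratin TPM in brush cells (96.5 to 99.1%) and 33.6 ± 3.96% in EpCAM+ cells (27.5 to 39.4%). Basal keratins (Krt5, Krt14, Krt15 and Krt17) took 1.23 ± 0.80% in brush cells (0.251 to 2.48%) and 54.6 ± 4.56% in EpCAM+ cells (45.3 to 59.5%). The 14 squamous keratins took 0.204 ± 0.20% in brush cells (0.0441 to 0.558%) and 11.6 ± 6.62% in EpCAM+ cells (4.8 to 23.1%). For each of these 3 classes the brush and EpCAM+ ranges lay apart. Shares in CD45+ cells varied widely on their small sum: simple keratins took 7.49 to 57.7%, and hair and nail keratins 2.5 to 75.3%, the highest in CD45+ 1.

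**Figure D1:**
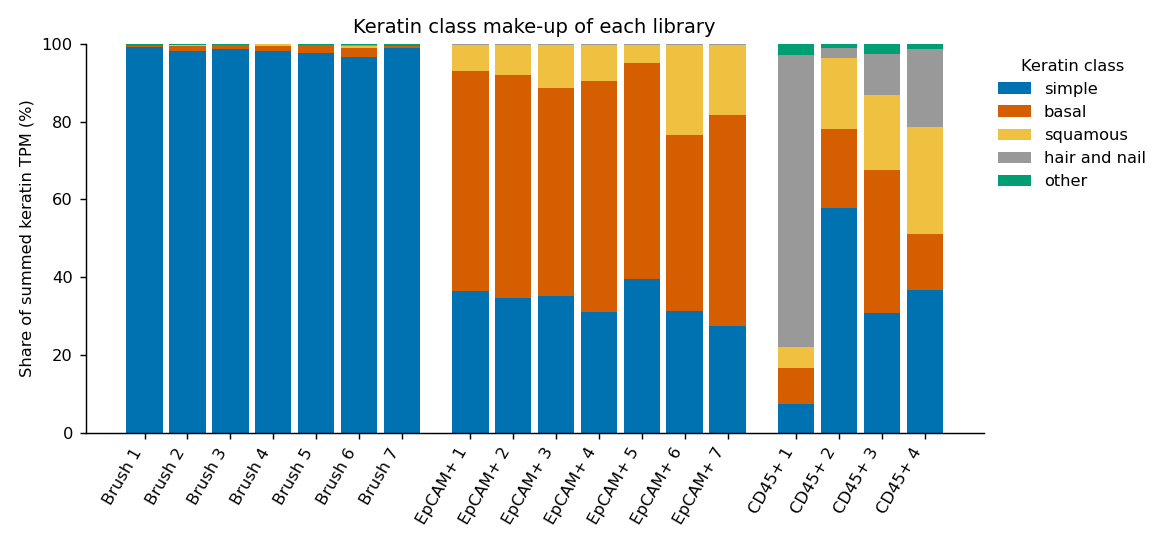
Share of the summed keratin TPM (percent, 0 to 100) taken by each keratin class, with 1 stacked bar per library. Simple keratins fill 96.5 to 99.1% of the 7 brush bars and 27.5 to 39.4% of the 7 EpCAM+ bars, and the 4 CD45+ bars rest on a sum of only 29.6 to 155 TPM.

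Within the simple keratins the balance of partners also differed between the populations. Krt8 and Krt18 together made up 74.7 ± 1.64% of keratin TPM in brush cells and 14.3 ± 1.40% in EpCAM+ cells. Krt19, a type I keratin that can also pair with Krt8, made up 21.2 ± 1.69% in brush cells and 14.4 ± 2.79% in EpCAM+ cells, and the ratio of Krt19 to Krt18 TPM was 0.461 ± 0.056 in brush cells and 1.77 ± 0.41 in EpCAM+ cells. Krt7, the second type II keratin of simple epithelia, stood at 0.0168 ± 0.0081 times the TPM of Krt8 in brush cells and at 0.681 ± 0.38 times in EpCAM+ cells. Type I keratins as a whole made up 70.4 ± 2.28% of keratin TPM in brush cells and 77.0 ± 5.43% in EpCAM+ cells.

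Of the 50 keratins, 19 had enough counts to be tested. The filter asked for about 2.43 CPM in at least 4 libraries, so a keratin could pass through 1 group alone. Krt222 reached that level in no EpCAM+ library, Krt75 in EpCAM+ libraries only and Krt83 in CD45+ libraries only. Krt13 and Krt16 passed only with the EpCAM+ libraries counted. Krt13 reached the level in 1 brush, 7 EpCAM+ and 1 CD45+ libraries, and Krt16 in 2, 6 and 0. No counts at all were found for Krt24, Krt35 and Krt40. The other 28 untested keratins had at most 85 counts over all 18 libraries (Krt90), and the highest mean of any of them in a group was 2.81 CPM. The untested keratins include 20 of the 23 hair and nail keratins, and Krt20, a simple keratin of gut and urothelium, with 13 counts in brush, 13 in EpCAM+ and 0 in CD45+ libraries.

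The main comparison set brush cells against the EpCAM+ epithelium. Among the 19 tested keratins, 4 were higher in brush cells (Krt8, Krt18, Krt79 and Krt222), 9 were lower (Krt4, Krt5, Krt7, Krt13, Krt14, Krt15, Krt17, Krt75 and Krt80) and 6 did not pass (Krt10, Krt16, Krt19, Krt23, Krt83 and Krt87). The test was edgeR's quasi-likelihood F test, with Benjamini-Hochberg adjustment over 13418 genes and a threshold of 0.05, which called 40.3% of them, 18.3% higher and 22% lower. The median log2 fold change, brush over EpCAM+, was -2.12 over the tested keratins and -0.0576 over all genes tested. By class, 2 of 5 tested simple keratins were higher and 1 lower, all 4 basal keratins were lower, and 1 of 6 tested squamous keratins was higher and 3 lower. Class medians were 0.19 for simple, -5.83 for basal and -2.54 for squamous keratins. In sorted bulk samples, fewer cells of a type and less RNA per cell cannot be told apart.

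**Figure D2:**
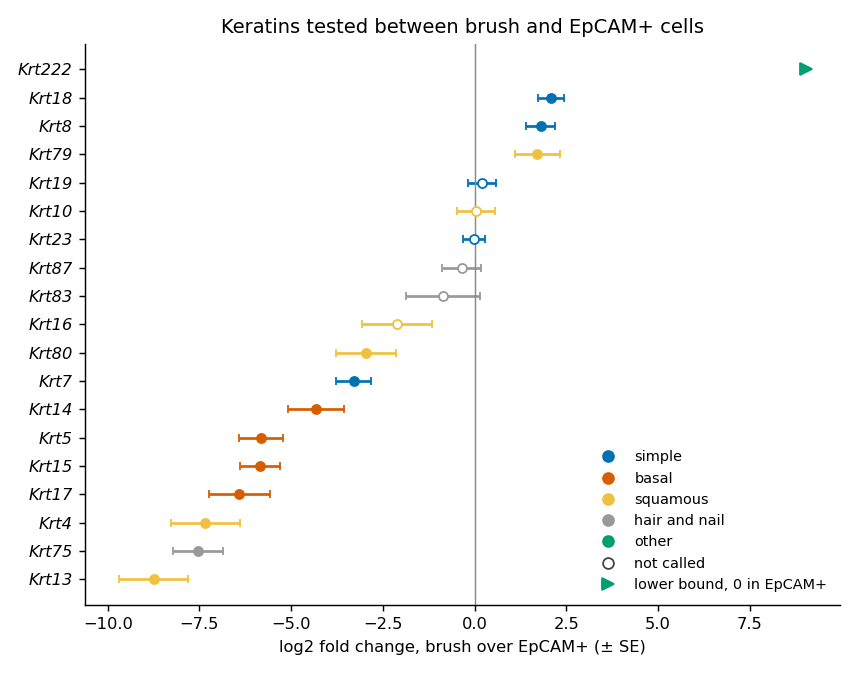
Log2 fold change of brush over EpCAM+ cells for the 19 tested keratins, with bars of 1 SE; filled points passed an adjusted p of 0.05 and open ones did not. Krt18 and Krt8 lie to the right at 2.08 and 1.80, the 4 basal keratins to the left at -6.41 to -4.32, and Krt222 is drawn at its lower bound because EpCAM+ libraries had 0 counts.

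Krt18, the type I partner of Krt8, ran from 2876 to 4474 CPM in brush libraries with a median of 3160, and from 547 to 1060 CPM in EpCAM+ libraries with a median of 859. In CD45+ libraries it stood at 2.87, 20.9, 7.88 and 2.54 CPM. The 3 groups did not overlap, with brush highest and CD45+ lowest. It was higher in brush than in EpCAM+ cells by a log2 fold change of 2.08 ± 0.36 (SE, edgeR adjusted p = 5.69e-05).

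Krt8, the type II partner, ran from 1623 to 2494 CPM in brush libraries with a median of 1951, and from 246 to 824 CPM in EpCAM+ libraries with a median of 563. In CD45+ libraries it stood at 0, 25.7, 5.59 and 4.57 CPM. Again no group overlapped another. The log2 fold change of brush over EpCAM+ was 1.80 ± 0.40 (edgeR adjusted p = 0.000883). Krt8 and Krt18 varied by 14.4% and 20.7% (coefficient of variation of CPM) over the brush libraries, and the ratio of Krt8 to Krt18 TPM was 0.622 ± 0.080 in brush cells and 0.753 ± 0.24 in EpCAM+ cells, lowest in EpCAM+ 5 at 0.262.

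Krt8 and Krt18 are neighbours on chromosome 15, the cluster of type II keratins, of which Krt18 is the only type I member. In GENCODE vM21 coordinates on GRCm38, Krt8 lies at chr15:101996698-102004482 on the minus strand and Krt18 at chr15:102028180-102032027 on the plus strand, 23698 bases apart. Promoter windows of 300 bases, 250 before and 50 after the RefSeq start on GRCm38.p6, are shown for this pair, which was higher in brush cells, and for Krt7 and Krt5, which lie in the same cluster and were lower. The windows are Krt8 at chr15:102004293-102004592 (minus strand), Krt18 at chr15:102027966-102028265 (plus), Krt7 at chr15:101412153-101412452 (plus) and Krt5 at chr15:101712856-101713155 (minus), each read 5′ to 3′ along its gene. Capitals mark matches on either strand to 3 motifs: TATAAA, the core of the TATA box, then GGGCGG, the GC box, then TGANTCA, the AP-1 site.
Krt8: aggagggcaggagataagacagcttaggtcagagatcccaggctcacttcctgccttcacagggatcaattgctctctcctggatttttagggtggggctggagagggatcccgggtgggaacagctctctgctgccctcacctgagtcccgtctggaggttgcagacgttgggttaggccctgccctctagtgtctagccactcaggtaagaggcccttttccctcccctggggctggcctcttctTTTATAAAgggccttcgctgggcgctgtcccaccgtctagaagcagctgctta
Krt18: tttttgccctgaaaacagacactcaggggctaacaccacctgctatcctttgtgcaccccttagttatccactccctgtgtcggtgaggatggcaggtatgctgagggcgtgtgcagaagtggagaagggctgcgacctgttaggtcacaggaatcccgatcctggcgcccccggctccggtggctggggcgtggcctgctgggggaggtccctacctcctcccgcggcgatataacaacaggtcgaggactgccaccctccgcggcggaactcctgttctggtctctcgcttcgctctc
Krt7: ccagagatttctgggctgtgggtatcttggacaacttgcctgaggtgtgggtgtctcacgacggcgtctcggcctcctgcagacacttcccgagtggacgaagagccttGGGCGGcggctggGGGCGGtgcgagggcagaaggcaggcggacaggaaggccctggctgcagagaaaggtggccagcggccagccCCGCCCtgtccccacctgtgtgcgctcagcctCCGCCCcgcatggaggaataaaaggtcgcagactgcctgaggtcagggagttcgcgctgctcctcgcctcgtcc
Krt5: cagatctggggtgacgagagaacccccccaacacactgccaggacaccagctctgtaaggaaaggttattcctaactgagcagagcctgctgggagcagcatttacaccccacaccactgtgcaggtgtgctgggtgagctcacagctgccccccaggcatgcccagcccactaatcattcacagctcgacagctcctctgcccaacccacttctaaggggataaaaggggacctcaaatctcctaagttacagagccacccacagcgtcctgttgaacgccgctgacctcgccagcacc
The Krt8 window held a TATAAA match on each strand, overlapping at positions -3 and -1 from the start, and the Krt7 window held 4 GGGCGG matches at -141, -128, -56 and -24. The Krt18 and Krt5 windows held none of the 3 motifs as spelled.

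Over the family, 35 keratin genes had 36 promoter windows in the RefSeq table. TATAAA was found in 18 of the 36 (50%), against 13.6% of all 32851 windows of the same length. By class it was in 13 of 17 hair and nail, 3 of 11 squamous, 2 of 5 simple and 0 of 2 basal keratin windows. GGGCGG was found in 2 of 36 (5.56%, Krt7 and Krt75) against 35.7% of all windows, and TGANTCA in 2 of 36 (5.56%, both of Krt13) against 7.81%. A match says only that these letters are in the window. Of the 36 windows, 4 rest on a RefSeq start more than 100 bases inside the gene as GENCODE draws it: 1518 bases for Krt14, 1360 for Krt7, 989 for the second Krt13 window and 140 for Krt8. Windows were lacking for Krt4, Krt15, Krt16, Krt17, Krt19, Krt80, Krt83, Krt87 and Krt222 among the keratins described here.

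The other simple keratins split. Krt19 ran from 1466 to 2179 CPM in brush libraries (median 1683) and from 1278 to 1588 CPM in EpCAM+ libraries (median 1503), and the groups overlapped. Its log2 fold change was 0.19 ± 0.39 with a 95% interval from -0.61 to 0.99 (edgeR adjusted p = 0.729). Krt23, a type I keratin, ran from 130 to 277 CPM in brush libraries (median 239) and from 126 to 399 CPM in EpCAM+ libraries (median 218), with a log2 fold change of -0.02 ± 0.31 and an interval from -0.65 to 0.62 (edgeR adjusted p = 0.98). Both intervals leave out the change of Krt18, though neither p shows that the levels are alike.

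Krt7 went the other way from Krt8. It ran from 73.0 to 300.5 CPM in brush libraries (median 120) and from 1275 to 1590 CPM in EpCAM+ libraries (median 1395), with no overlap. The log2 fold change of brush over EpCAM+ was -3.29 ± 0.48 (edgeR adjusted p = 5.66e-06). Brush cells held 10.3% of the EpCAM+ mean, with single brush libraries from 5.17 to 21.3%.

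**Figure D3:**
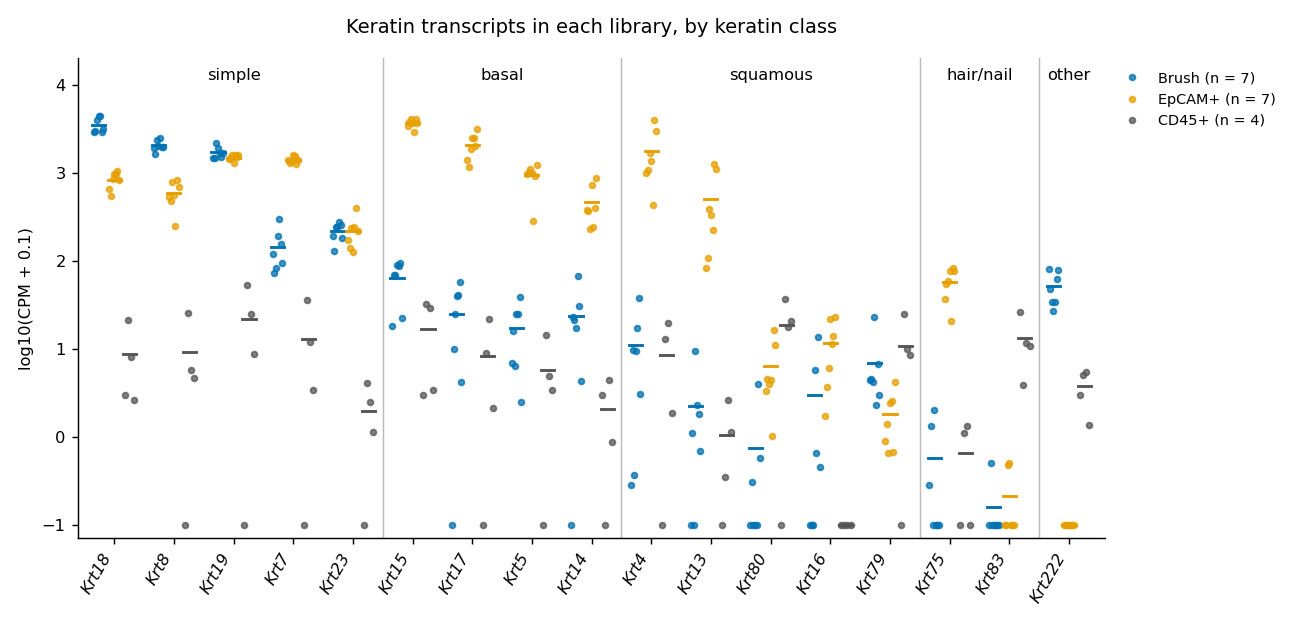
Level of the 17 keratins described by value in each library, as log10 of CPM + 0.1, by class; each point is 1 library, short bars are group means and points at -1 had 0 counts. Brush points lie above EpCAM+ points for Krt18, Krt8 and Krt222 and below them for Krt7 and the basal keratins, and the 2 groups overlap for Krt19 and Krt23.

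All 4 basal keratins were lower in brush cells, beside 22% of all tested genes, and for none did the brush and EpCAM+ libraries overlap. The share of all genes without overlap is not given here. Krt15 ran from 17.9 to 93.2 CPM in brush libraries (median 69.6) and from 2891 to 4106 CPM in EpCAM+ libraries (median 3702), a log2 fold change of -5.84 ± 0.54 (edgeR adjusted p = 9.02e-09). Krt5, the type II keratin that defines basal cells, ran from 2.38 to 38.8 CPM in brush libraries (median 15.6) and from 282 to 1226 CPM in EpCAM+ libraries (median 987), a log2 fold change of -5.82 ± 0.61 (edgeR adjusted p = 5.47e-08). The lowest EpCAM+ value of Krt5 was that of EpCAM+ 5, and the other 6 lay between 917 and 1226 CPM.

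Krt14, the type I partner of Krt5, ran from 0 to 67.0 CPM in brush libraries (median 21.1) and from 229 to 880 CPM in EpCAM+ libraries (median 374), a log2 fold change of -4.32 ± 0.75 (edgeR adjusted p = 6.19e-05). Krt17, a type I keratin of basal cells that is also induced in injured skin, ran from 0 to 56.7 CPM in brush libraries (median 24.4) and from 1162 to 3127 CPM in EpCAM+ libraries (median 2022), a log2 fold change of -6.41 ± 0.84 (edgeR adjusted p = 1.48e-06). Brush 1 had 0 counts of both Krt14 and Krt17. The ratio of Krt5 to Krt14 TPM was 0.417 ± 0.24 in the 6 brush libraries with Krt14 and 1.26 ± 0.68 in 7 EpCAM+ libraries.

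The remaining basal keratin signal in brush libraries was a few percent of the EpCAM+ level. Brush means were 1.75% of the EpCAM+ mean for Krt15, 1.82% for Krt5, 1.2% for Krt17 and 5.05% for Krt14. The summed level of 8 basal cell markers that are not keratins was 28.3 to 128 CPM in brush libraries and 1683 to 2880 CPM in EpCAM+ libraries, or 2.98% at the means, and 8 of 8 were detected in both. That of 10 secretory cell markers was 409 to 3405 CPM in brush libraries and 34490 to 166900 CPM in EpCAM+ libraries, or 1.96%, with 10 of 10 detected in both. Other lists stood elsewhere: brush means were 4.24% of the EpCAM+ mean for the sum of 10 stromal markers, 22.9% for 10 ciliated cell markers and 1310% for 10 leukocyte markers. Single genes carried much of these sums, which therefore do not measure cell types. Dcn ran from 251 to 519 CPM in EpCAM+ libraries, while the stromal marker Pdgfra was higher in brush cells. In brush libraries Tppp3 (ciliated) ran from 71.1 to 247 CPM and Ptprc (leukocyte) from 10.2 to 31.4 CPM. Cd79a was called lower in brush cells, but on only 0 counts in brush and 8 counts in EpCAM+ libraries. Brush 6 was highest for both Krt5 (4.17% of the EpCAM+ mean) and the basal marker sum (5.05%), while brush 4 was lowest for the basal marker sum (1.12%) but not for Krt5 (2.63%). In brush libraries this sum leaned on Ngfr, the 1 basal marker not called between the groups. The other 7 were lower in brush cells, beside 22% of all tested genes. Ngfr gave 1.89 of 28.3 CPM in brush 4 and 67.9 of 80.2 CPM in brush 7, the library lowest for Krt5 (0.255%). The order of brush libraries by this sum therefore rests in part on Ngfr. The part that RNA of other cells has in the low basal keratin counts of brush libraries was not tested.

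**Figure D4:**
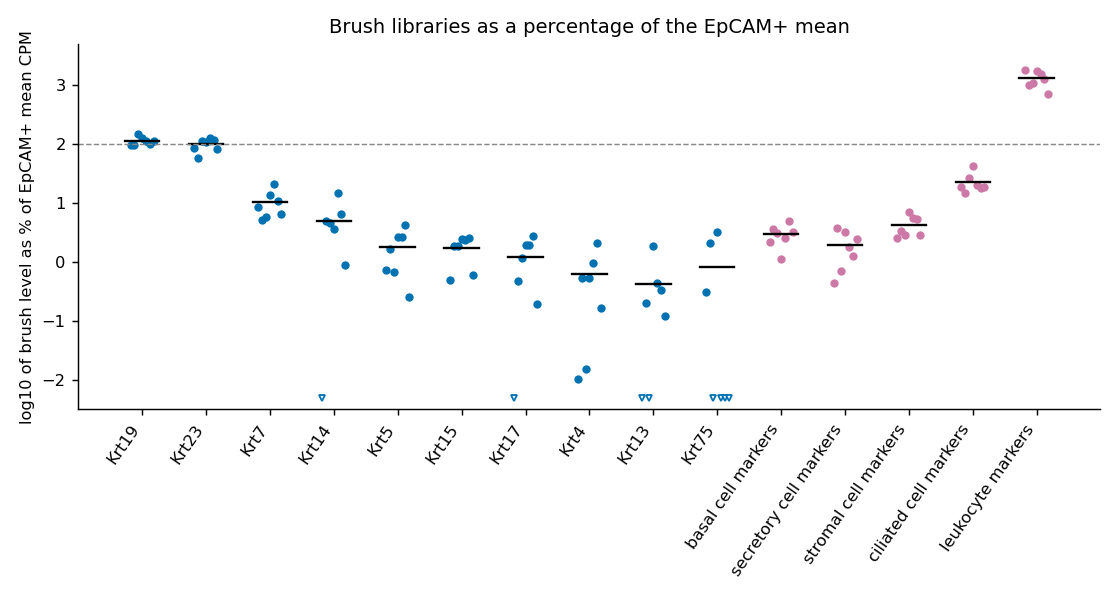
Each brush library as a percentage of the EpCAM+ mean CPM, on a log10 axis where 2 is 100%, for 10 keratins and for the summed level of 5 marker lists; short bars are means and triangles at the bottom are libraries with 0 counts. Krt19 and Krt23 lie about the dashed line at 100%, Krt7 at a mean of 10.3%, and the basal and squamous keratins and Krt75 from 0.426 to 5.05%, and the marker lists at 1.96% (secretory), 2.98% (basal), 4.24% (stromal), 22.9% (ciliated) and 1310% (leukocyte).

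The squamous pair was lower still in brush cells. Krt4 ran from 0.181 to 37.8 CPM in brush libraries (median 9.43) and from 427 to 3957 CPM in EpCAM+ libraries (median 1367), a log2 fold change of -7.34 ± 0.95 (edgeR adjusted p = 1.29e-06). Krt13, its type I partner, ran from 0 to 9.43 CPM in brush libraries (median 1.01) and from 81.8 to 1266 CPM in EpCAM+ libraries (median 332), a log2 fold change of -8.75 ± 0.93 (edgeR adjusted p = 7.52e-08). The groups did not overlap for either gene. Krt13 passed the count filter only with its EpCAM+ libraries, so its p is not separate support for the difference. Within EpCAM+ cells this pair varied most among the abundant keratins, with a coefficient of variation of 69.7% for Krt4 and 96.5% for Krt13. It was 53.6% for Krt14, 41.8% for Krt23, 34.1% for Krt8, 32.7% for Krt17 and 32.6% for Krt5. Lower values were those of Krt18 (21.7%), Krt15 (11.5%), Krt7 (8.66%) and Krt19 (7.59%). EpCAM+ 6 and 7 held the highest values of both Krt4 and Krt13. The brush mean of Krt4 was 11 CPM with brush 6 and 6.54 CPM without it, and that of Krt13 was 2.13 CPM with brush 4 and 0.915 CPM without it.

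Other keratins placed with the squamous class were scarce, and their values overlapped between brush and EpCAM+ cells. Krt79, a type II keratin of hair follicle and sebaceous ducts in mouse skin, ran from 2.18 to 22.6 CPM in brush libraries (median 4.35) and from 0.557 to 4.04 CPM in EpCAM+ libraries (median 1.27). Its log2 fold change was 1.71 ± 0.61 (edgeR adjusted p = 0.0278), and the call was lost without brush 4 (1.25, adjusted p = 0.0718), EpCAM+ 3 (adjusted p = 0.0554) or EpCAM+ 6 (adjusted p = 0.0540), and with RSEM expected counts (1.02, adjusted p = 0.359). The brush mean fell to 4.09 CPM without brush 4, against 6.73 CPM with it.

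Krt80, a type II keratin, ran from 0 to 3.84 CPM in brush libraries (median 0) and from 0.926 to 16.1 CPM in EpCAM+ libraries (median 4.31), a log2 fold change of -2.97 ± 0.82 (edgeR adjusted p = 0.00553). The brush mean was 0.645 CPM with brush 6 and 0.113 CPM without it. Krt16, a type I keratin induced in injured skin, ran from 0 to 13.4 CPM in brush libraries (median 0.357) and from 1.6 to 22.9 CPM in EpCAM+ libraries (median 11.1), and its log2 fold change of -2.12 ± 0.95 did not pass (edgeR adjusted p = 0.0828). Without brush 6, the highest brush library, it did (-4.98, adjusted p = 0.000413), as it did with RSEM expected counts (-2.33, adjusted p = 0.0431) and limma voom (-3.97, adjusted p = 0.0012). Krt16 passed the count filter only with its EpCAM+ libraries, so these p-values are not separate support for the difference. Krt10, the type I keratin of upper epidermal layers, had a log2 fold change of 0.04 ± 0.53 with an interval from -1.05 to 1.13 (edgeR adjusted p = 0.97).

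Of the hair keratins, Krt75, a type II keratin of the hair follicle companion layer, was lower in brush cells. It ran from 0 to 1.89 CPM in brush libraries (median 0) and from 20.4 to 81.6 CPM in EpCAM+ libraries (median 58.9), with no overlap, and 4 of 7 brush libraries had no counts. The log2 fold change was -7.53 ± 0.67 (edgeR adjusted p = 5.57e-09). Krt75 passed the count filter through EpCAM+ libraries alone, so that p is not separate support for the difference. Krt83, a type II hair keratin, had 2 counts in all brush libraries and 5 in all EpCAM+ libraries. Krt87 had a log2 fold change of -0.35 ± 0.53 (edgeR adjusted p = 0.646). With RSEM expected counts that of Krt87 was 3.08 (adjusted p = 0.00183), and RSEM gave it 1.27 times the deposited count in brush and 0.120 times in EpCAM+ libraries. Krt87 and Krt7 lie on opposite strands with their 3′ ends 725 bases apart.

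Krt222, which lies at the edge of the type I cluster on chromosome 11 (chr11:99232761-99244085, minus strand, GRCm38), had a level in brush and CD45+ cells but none in EpCAM+ cells. It stood at 80.3, 47.0, 34.1, 26.4, 34.3, 61.9 and 78.2 CPM in brush libraries 1 to 7, 1825 counts in all. The 7 EpCAM+ libraries had 0 counts, and the 4 CD45+ libraries had 2.87, 4.99, 5.37 and 1.27 CPM, 75 counts in all. The groups did not overlap. Against a floor of 3 counts over the EpCAM+ libraries, it was at least 525-fold higher in brush cells (edgeR adjusted p = 1.26e-09) and at least 36.7-fold higher in CD45+ cells (adjusted p = 1.5e-06). Brush over CD45+ gave a log2 fold change of 3.75 ± 0.51 (adjusted p = 8.44e-06). Krt222 reached the filter level in no EpCAM+ library, so the p-values against EpCAM+ cells are not separate support for those differences.

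**Figure D5:**
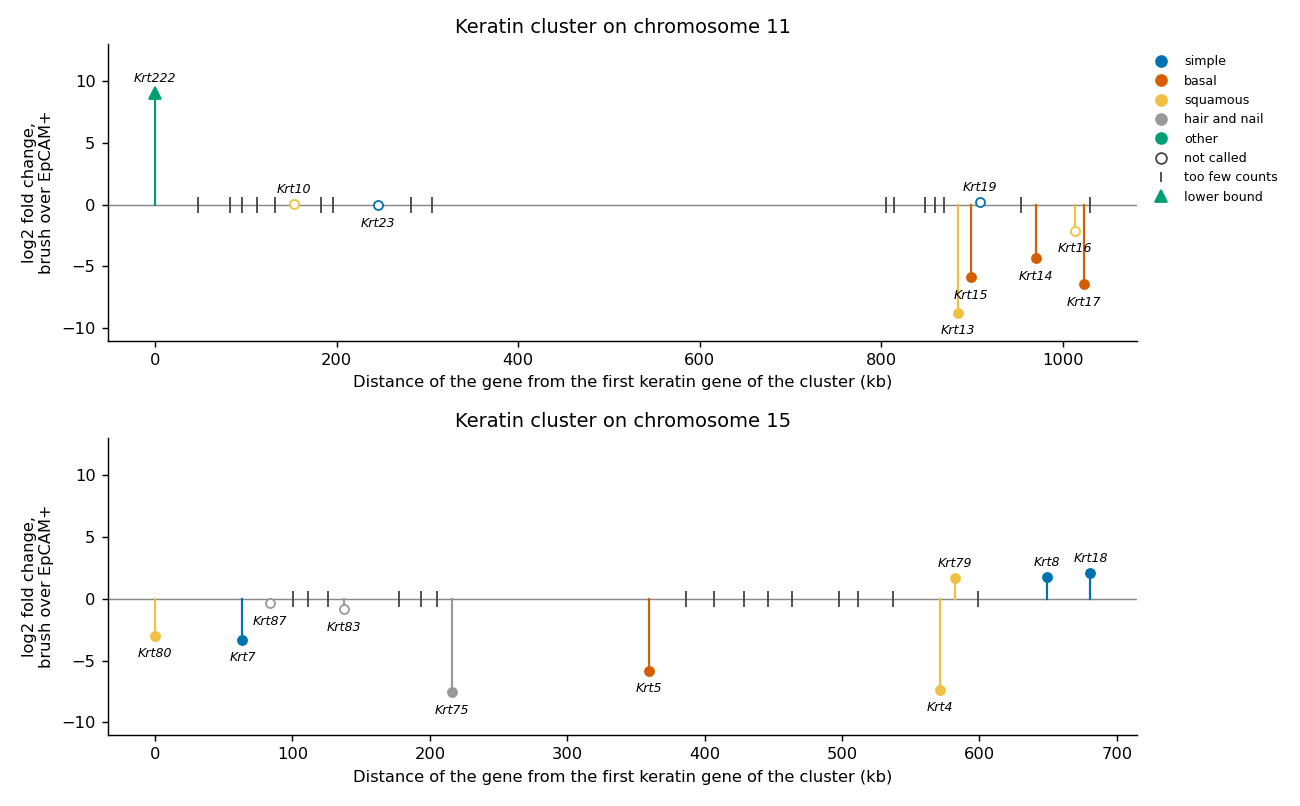
Log2 fold change of brush over EpCAM+ cells against the distance of each keratin gene from the first gene of its cluster (kb), for chromosomes 11 and 15; filled points passed an adjusted p of 0.05, open points did not, ticks are keratins with too few counts and the triangle for Krt222 is a lower bound. On chromosome 15 Krt79, Krt8 and Krt18, higher in brush cells, lie at the far end, and Krt4 beside them is lower.

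The family split evenly over 2 clusters, 25 genes over 1037 kb on chromosome 11 and 25 over 685 kb on chromosome 15. On chromosome 11, 1 of 9 tested keratins was higher in brush than in EpCAM+ cells (Krt222) and 4 were lower (Krt13, Krt14, Krt15 and Krt17). On chromosome 15, 3 of 10 were higher (Krt8, Krt18 and Krt79) and 5 lower (Krt4, Krt5, Krt7, Krt75 and Krt80). Over all tested genes 18.3% were higher and 22% lower. Neighbours did not share a direction throughout: Krt19 did not pass the test, while Krt15 beside it was lower.

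The comparison with CD45+ cells set each keratin against its level in hematopoietic cells, which are not epithelial. In brush cells 11 of 19 tested keratins were higher than in CD45+ cells and 2 lower, beside 45.8% of all genes called, 23.4% higher and 22.4% lower. All 5 tested simple keratins were higher, Krt18 by a log2 fold change of 8.56 ± 0.63 (edgeR adjusted p = 2.29e-10), Krt8 by 7.65 ± 0.69, Krt23 by 6.53 ± 0.53, Krt19 by 6.18 ± 0.63 and Krt7 by 3.34 ± 0.61. The median over the tested keratins was 2.02, and 0.0468 over all genes.

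Of the basal and squamous keratins, several were not told from the CD45+ level in brush cells. Krt15 (1.80 ± 0.57, edgeR adjusted p = 0.0117) and Krt14 (3.54 ± 1.03, adjusted p = 0.00683) were higher in brush cells, the second not with limma voom (2.5, adjusted p = 0.246). Krt5 (1.34 ± 0.65, adjusted p = 0.101), Krt17 (1.37 ± 0.86, adjusted p = 0.207), Krt4 (0.16 ± 0.90, adjusted p = 0.905) and Krt13 (-0.22 ± 0.99, adjusted p = 0.882) did not pass. Krt5 passed without brush 7 (adjusted p = 0.0355), without CD45+ 2 (adjusted p = 0.0225) and with DESeq2 (adjusted p = 0.0415). Krt16, at 0 in all CD45+ libraries, was at least 16.6-fold higher in brush cells (adjusted p = 0.0239), a call lost without brush 6 (adjusted p = 0.14), without CD45+ 2, 3 or 4, and with limma voom. With only the brush and CD45+ libraries fitted, Krt16 had too few counts to be tested. Krt75 (-1.37 ± 0.90, adjusted p = 0.227) passed as lower in brush cells without brush 2 (-2.76, adjusted p = 0.0241). Krt10 was higher (2.02 ± 0.75, adjusted p = 0.0304), a call lost without brush 4 or 6, without CD45+ 2 or 3, and with RSEM expected counts (1.41, adjusted p = 0.184), and Krt87 was higher by 4.24 ± 0.96.

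In EpCAM+ cells 15 of 19 tested keratins were higher than in CD45+ cells and 3 lower (Krt79, Krt83 and Krt222), beside 40.5% of all genes called, 22.5% higher and 18.1% lower. Among keratins with counts in both groups, Krt13 had the largest log2 fold change, 8.53 ± 1.18, and Krt16, at 0 in all CD45+ libraries, was at least 66.8-fold higher (edgeR adjusted p = 0.00293). Both passed the count filter only with the EpCAM+ libraries, so their calls are not separate support for these differences. The 4 basal keratins lay between 7.15 ± 0.84 (Krt5) and 7.87 ± 1.21 (Krt14). The median over the tested keratins was 6.48, or 6.16 with keratins at 0 in 1 group set at their bound, and 0.0806 over all genes. Krt10 passed (1.98 ± 0.74, edgeR adjusted p = 0.0354) but not without EpCAM+ 5 (1.12, adjusted p = 0.116), the highest EpCAM+ library at 29.3 CPM. The EpCAM+ mean was 7.76 CPM with it and 4.17 CPM without it, and the call was also lost without CD45+ 2 or 3, with only the EpCAM+ and CD45+ libraries fitted (2.07, adjusted p = 0.0633) and with limma voom (1.5, adjusted p = 0.0578).

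A low keratin signal was present in the CD45+ libraries, mostly in CD45+ 2 and 3. CD45+ means were 0.847 to 1.53% of the EpCAM+ mean for the 5 simple keratins and 0.388 to 0.599% for the 4 basal ones. The sums of markers ran at 2.03% for epithelial, 1.01% for basal, 0.836% for secretory, 16.6% for stromal and 52.9% for ciliated cells, and the basal marker sum was 0 CPM in CD45+ 1 and at most 41.3 CPM, in CD45+ 3. The ciliated sum of CD45+ libraries 1 to 4 was nearly all Tppp3, at 210, 447, 160 and 596 of 215.5, 451.4, 164.3 and 601.9 CPM. Ccdc39 and Sntn had 0 counts there. Dcn made up most of the EpCAM+ stromal sum, at 251 to 519 CPM. These 2 percentages therefore follow single genes. Without CD45+ 2 the CD45+ mean of Krt8 was 3.39 CPM, against 8.96 CPM with it, and that of Krt7 was 5.01 CPM, against 12.7 CPM with it. The part of epithelial RNA in these values was not tested.

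Beside Krt222, 3 tested keratins had a higher mean in CD45+ than in EpCAM+ cells. Krt83 had 0 to 0.405 CPM in brush libraries, 0 to 0.404 CPM in EpCAM+ libraries and 25.9, 3.74, 11.6 and 10.7 CPM in CD45+ libraries, each above all brush and EpCAM+ libraries. Krt83 passed the count filter through CD45+ libraries alone, so its p-values are not separate support for that difference. Its 2 counts in brush libraries against 172 in CD45+ libraries gave a ratio of pooled levels, CD45+ over brush, of 146 with a 95% counting interval from 39.8 to 1220 (edgeR adjusted p = 1.3e-06), and EpCAM+ over CD45+ gave a log2 fold change of -6.07 ± 0.83 (adjusted p = 2.07e-06). Krt80 had 0, 36.1, 17.7 and 20.3 CPM in CD45+ libraries, and was lower in brush than in CD45+ cells by a log2 fold change of -4.65 ± 0.89 (adjusted p = 0.000136). The EpCAM+ difference in Krt80 did not pass (-1.68 ± 0.76, adjusted p = 0.0856), and passed without CD45+ 1 (-1.98, adjusted p = 0.0397), EpCAM+ 6 (adjusted p = 0.0395), brush 6 (adjusted p = 0.0299) or the 3 libraries that stood apart (adjusted p = 0.0473). It also passed with only the EpCAM+ and CD45+ libraries fitted (adjusted p = 0.0497) and with limma voom (adjusted p = 0.0175). Krt79 had 0, 24.7, 9.75 and 8.38 CPM in CD45+ libraries, with EpCAM+ lower by a log2 fold change of -2.76 ± 0.65 (adjusted p = 0.00135) and the brush difference not passing (-1.04 ± 0.65, adjusted p = 0.201) except without brush 4 (-1.48, adjusted p = 0.0449) or without the 3 libraries that stood apart (-1.75, adjusted p = 0.00974).

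Of the keratins with a letter in the symbol, both that could be tested were lower in brush than in EpCAM+ cells. Over all tested genes 22% were lower. Krt6a, a type II keratin induced in injured skin, had a mean of 3.48 ± 4.10 CPM in brush and 229 ± 142 CPM in EpCAM+ libraries (SD, n = 7 each), with a log2 fold change of -6.34 ± 0.86 (edgeR adjusted p = 2.44e-06). Krt6b had 0 counts in brush libraries and 5.83 ± 6.37 CPM in EpCAM+ libraries, where it was at least 57.5-fold higher. With 0 counts in CD45+ libraries as well, Krt6b passed the count filter through EpCAM+ libraries alone. Its call is therefore not separate support for the difference. Krt33a and Krt33b had too few counts to test.

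Genes of 3 related lists were set between brush and EpCAM+ cells, where 18.3% of all tested genes were higher and 22% lower, with a median log2 fold change of -0.0576. Of 17 tested desmosome and hemidesmosome genes, whose proteins anchor keratin filaments, 11 were lower and 1 higher, with a median log2 fold change of -0.996. Perp, a desmosome protein, had 72.8 ± 21.9 CPM in brush and 1304 ± 522 CPM in EpCAM+ libraries (-4.15 ± 0.41), and Itgb4, the hemidesmosome integrin, 49.7 ± 8.38 CPM in brush and 213 ± 46.6 CPM in EpCAM+ libraries (-2.10 ± 0.28). The linkers Plec and Dst were lower by log2 fold changes of -0.996 ± 0.24 and -1.07 ± 0.28. Dsg2, the desmoglein of simple epithelia, was the 1 higher gene, at 72.4 ± 9.73 CPM in brush and 20.5 ± 11.4 CPM in EpCAM+ libraries (1.83 ± 0.30, edgeR adjusted p = 2.85e-05).

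Of 13 tested genes of the cornified envelope, the protein shell of squamous cells, 11 were lower in brush cells and 1 higher, with a median of -2.77, beside the same 22% lower and 18.3% higher over all tested genes. Ppl and Evpl, which encode the plakins periplakin and envoplakin, were lower by -1.86 ± 0.25 and -1.77 ± 0.38, and Sprr1a by -3.34 ± 0.87. The higher one was Eppk1, which encodes epiplakin, a keratin-binding protein, at 351 ± 47.3 CPM in brush and 83.2 ± 20.4 CPM in EpCAM+ libraries (2.08 ± 0.25, edgeR adjusted p = 3.5e-07).

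Among 9 tested genes of other intermediate filaments, 3 were higher in brush cells and 4 lower, with a median of -1.42, beside 18.3% higher and 22% lower over all tested genes. Nefl, the light neurofilament chain, had 69.6 ± 22.5 CPM in brush libraries, 0 counts in EpCAM+ libraries and 1 count in CD45+ libraries. It was at least 706-fold higher in brush cells, set against EpCAM+ cells (edgeR adjusted p = 8.36e-11). Nefl passed the count filter through brush libraries alone, so that p is not separate support for the difference. Bfsp1, a lens filament protein, had 9.10 ± 4.68 CPM in brush and 0.277 ± 0.33 CPM in EpCAM+ libraries (5.06 ± 0.67). Bfsp1 too passed the filter through brush libraries alone. Its partner Bfsp2 had 2.15 ± 1.65 CPM in brush libraries, 0 counts in EpCAM+ libraries and 23.9 ± 35.9 CPM in CD45+ libraries. Lmna, which encodes lamins A and C, was lower in brush cells (94.2 ± 24.8 CPM) than in EpCAM+ cells (529 ± 125 CPM, -2.49 ± 0.34). Vim, the filament of mesenchymal and blood cells, had 1.02 ± 0.90 CPM in brush, 3.92 ± 3.23 CPM in EpCAM+ and 4051 ± 2716 CPM in CD45+ libraries.

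The 2 deposited ways of counting differed for some keratins, and the cause was not tested. RSEM gave 1.63 and 1.59 times the deposited count for Krt8 in brush and EpCAM+ libraries, 1.12 and 1.10 times for Krt18, 1.11 and 1.22 times for Krt14 and 1.32 and 1.45 times for Krt16. It gave 0.356 and 0.792 times for Krt79, and 0.517 and 0.942 times for Krt10. Exons of 10 members overlap a gene on the other strand, among them Krt5, Krt7, Krt8, Krt10, Krt75 and Krt80, and since the strand setting of the counting is not given, reads of the 2 strands cannot be told apart there.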

How the data were processed

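RNA of sorted mouse tracheal cells was sequenced in 18 libraries. The authors deposited a table of unnormalized read counts for 26327 symbols and, per the file headers, an RSEM table per library with expected counts and TPM for 47729 identifiers. The submitters' processing notes name the build mm10 and, as tools, featureCounts, RSEM 1.2.21, STAR 2.4.2a, DESeq2 and Picard. The gene annotation was not given in the sources used here, nor was the strand setting.

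The deposited counts were tested with edgeR 4.0.16 (quasi-likelihood, TMM scaling, filterByExpr) in R 4.3.3. A single model with group as its term took in all 18 libraries and 13418 genes, with Benjamini-Hochberg adjustment and a threshold of 0.05. Standard errors are the absolute log2 fold change over the square root of F. The code was tested on simulated data with 200 changed genes. CPM uses TMM library sizes. Class shares come from the deposited TPM and have no test. Intervals on pooled ratios and floors of 3 counts cover counting error only. Libraries of 1 group differed by a chi-square of at least 6.11 per degree of freedom, so none was taken as a copy. Promoters are RefSeq windows.

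Keratins were named with values at a mean of at least 10 CPM in 1 group or a call between brush and EpCAM+ cells, and related lists by up to 4 called genes per direction with the largest mean; Krt10 and Krt87 were added as the other tested members. The members and lists were chosen with earlier results of these data known. Stromal markers summed to 9.61 to 26.4 CPM in brush, 254 to 521 CPM in EpCAM+ and 23.4 to 135 CPM in CD45+ libraries, and ciliated markers to 102 to 287 CPM in brush, 361 to 1441 CPM in EpCAM+ and 164 to 602 CPM in CD45+ libraries. Alternatives were DESeq2 1.42.0, limma 3.58.1 voom, RSEM expected counts (rounded), no filter, fits of 2 groups, a replicate block, added keratins, counts without length correction, and libraries left out.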

Additional observations from a re-analysis of the deposited data

Results flagged for a closer look

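Of 58 groups of 4 to 7 values examined, 7 held a library whose gap to its nearest neighbour was large against the group's whole range (Dixon's criterion, under which chance alone flags about 1 in 20 groups). Brush 4 was high for 2 scarce keratins. It had 9.43 CPM of Krt13, with the next brush library at 2.18 CPM, and 22.6 CPM of Krt79, with the next at 6.61 CPM. In this smallest brush library (838328 counts) these levels rest on 5 and 12 counts, while brush 6 had 8 and 31 counts. Brush 6 was high for 2 other keratins, with 13.4 CPM of Krt16 (next 5.66 CPM) and 3.84 CPM of Krt80 (next 0.476 CPM). Brush 2 alone among brush libraries had Krt83, at 0.405 CPM, with the rest at 0. EpCAM+ 5 was low for Krt5 at 282 CPM, with the next EpCAM+ library at 917 CPM. EpCAM+ 6 had the lowest basal share of keratin TPM in its group, 45.3%, with the next at 53.4%, beside the highest squamous share of 23.1%. No cause was tested for these values.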

How the results depend on the processing

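Calls of Krt8, Krt18, Krt7 and the 4 basal keratins between brush and EpCAM+ cells kept their direction and side of the threshold in each alternative that gave a value; DESeq2 gave no adjusted p for Krt7. Over all alternatives, 391 recomputed counts and shares were labelled as close to the reported value and 8 were not. That label is loose, and some of the 391 left out a library of a group outside the comparison. It covers 21 keratins, not 15, higher in EpCAM+ than in CD45+ cells without the low-count filter. It also covers 4 keratins higher in brush than in EpCAM+ cells with RSEM expected counts, where Krt79 was lost and Krt87 gained. Without the low-count filter 16 keratins, not 9, were lower in brush than in EpCAM+ cells, the added ones being Krt25, Krt31, Krt42, Krt78, Krt84, Krt88 and Krt90. The 1 squamous keratin called higher in brush cells, Krt79, was 0 to 1 when single libraries were left out and 0 with RSEM expected counts. Krt87 reversed with RSEM expected counts, to a log2 fold change of 3.08 for brush over EpCAM+. Without length correction the simple share was 97.2% in brush cells, and the squamous share 0.418% in brush cells and 28.7% in CD45+ cells. Replicate numbers are shared between groups but were not shown to pair the samples. Correlations of same-numbered deviations between brush and EpCAM+ ran from -0.0982 to 0.273, and 2 of 7 were best with their own number. Such correlations cannot exclude that same-numbered samples came from the same animals. With the number as a block, 4 keratins were higher and 10 lower in brush than in EpCAM+ cells, Krt16 being added (-3.66, edgeR adjusted p = 0.00227), 10 were higher in brush than in CD45+ cells, Krt16 being lost (adjusted p = 0.0584), and 14 were higher and 4 lower in EpCAM+ than in CD45+ cells, with Krt10 lost (1.47, adjusted p = 0.121) and Krt80 added (-2.21, adjusted p = 0.0107). Fitted with the EpCAM+ and CD45+ libraries alone, Krt222 had too few counts to be tested. Depth limits the scarce keratins: 31 of 50 could not be tested, and CD45+ shares rest on a summed keratin TPM of 29.6 to 155.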
